A study of Mus musculus with 24 samples.

Results

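The comparison set cortex injured by stroke against intact cortex in aged C57Black/6 mice of 18 months, 6 animals per group. Its 12 libraries, those titled MCAO_18M and Ctrl_18M with the letters A to F, were taken from a series of 24. The other 12 libraries hold the same 2 conditions at an age of 3 months. In the MCAO group the middle cerebral artery was coagulated close to its origin and cut under isoflurane, and brain tissue was taken 3 days later. The occlusion was thus permanent, without reperfusion, and per the labels it leaves small infarcts in the parietal cortex. The controls were intact animals of the same age without surgery, so anaesthesia and the opening of skull and dura are part of the difference. The labels do not state sex, infarct size or the side sampled. Sequencing libraries were made from 400 ng of total RNA by a method that reads the 3′ end of each polyadenylated transcript, so that counts do not grow with transcript length. Values are CPM, the counts of a gene set to a common library total, scaled by the trimmed mean of M-values (TMM).

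When a cerebral artery closes, neurons in its territory lose their energy supply and die within hours to days, while glia and vessels at the border survive. Microglia and astrocytes around the dying tissue change their expression programme, and monocytes and neutrophils enter from the blood. Debris is then taken up, cells divide and a scar of matrix and glia forms, a sequence that is in full course on the third day.

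All 18 listed genes of cortical projection neurons passed the filter on low counts, summing to 4341 to 5791 CPM after MCAO and 6397 to 8539 CPM in controls, and the cortical transcription factor Neurod6 had 57.2 to 115 CPM after MCAO. Of 6 striatal genes 5 passed as well, and the list summed to 109 to 291 CPM after MCAO and 157 to 277 CPM in controls, with Drd2 at no count in any of the 12 libraries. None of the 5 was called, against 2 lower with spike-in totals. Of 11 genes listed for choroid plexus and ependyma, 4 were tested and 2 were called higher (1 with spike-in totals). Of 8 skeletal muscle genes 2 were tested and 1 was lower (2 with spike-in totals), and of 5 platelet genes 2 were tested and none was called. Dendritic cell genes were tested in 2 of 7 cases, with 1 lower and none without libraries C and F of the injured group. Gene counts ran from 3.30 to 9.38 M per library, and 14599 of 46983 gene identifiers passed the filter on low counts. The share of spike-in RNA was 8.14 ± 1.43% after MCAO and 6.29 ± 1.27% in controls (mean ± SD, n = 6, exact permutation p = 0.0411, two-sided, adjusted 0.0960 over 7 library measures). Genes with a count numbered 19030 to 20632 after MCAO and 17601 to 18976 in controls (exact permutation p = 0.00217, the smallest that 6 against 6 allows, adjusted 0.0152).

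Some injured libraries stood apart. In pairs of libraries compared across genes, library D differed most from the rest of the injured group, and library A from the other controls. Summed haemoglobin and other erythrocyte genes reached 38.4 to 1287 CPM after MCAO and 4.13 to 64.6 CPM in controls, with the highest values in libraries C and F. Library C alone held immunoglobulin transcripts in quantity, and its scores for most immune and matrix lists were the highest of the group. Counts of called genes are given with all 6 libraries. Where leaving out C and F, a setting chosen after the data were seen, moved a count of 4 or more called members of a list by more than 1.5 times, that count follows. Library D stays in that setting and was left out only on its own. In homogenised tissue, fewer cells of a type and less RNA per cell cannot be told apart.

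At an adjusted p under 0.05 (edgeR's quasi-likelihood F test, Benjamini-Hochberg over all genes tested), 3463 genes were higher after MCAO, 23.7% of those tested, and 3143 were lower, 21.5%. Together these were 45.2% of tested genes. Rises were larger than falls. At least 1 on the log2 scale was reached by 1971 raised genes (13.5%) and 285 lowered ones (1.95%). The 6 injured libraries lay above all 6 controls in 2334 genes (16.0%) and below them in 1604 (11.0%). The median log2 change of all tested genes was -0.03. Scaled by spike-in totals, that median was -0.32 and the calls were 2007 up and 4119 down, 32.8% of them up against 52.4% with TMM. Scaled by library totals it was 0.09 with 4143 up and 2134 down, 66.0% up. All changes below are relative to the TMM scaling, and a count of 4 or more called members of a list that shifts by more than 1.5 times with library or spike-in totals is given with that count. Without C and F, 3030 genes were up and 2505 down. For the gene lists below, the count of members called and their median stand beside these shares and this median of all genes. A member that passed the filter only through its level after MCAO had to differ, so the counts over tested members describe the lists and are not support for them.

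**Figure D1:**
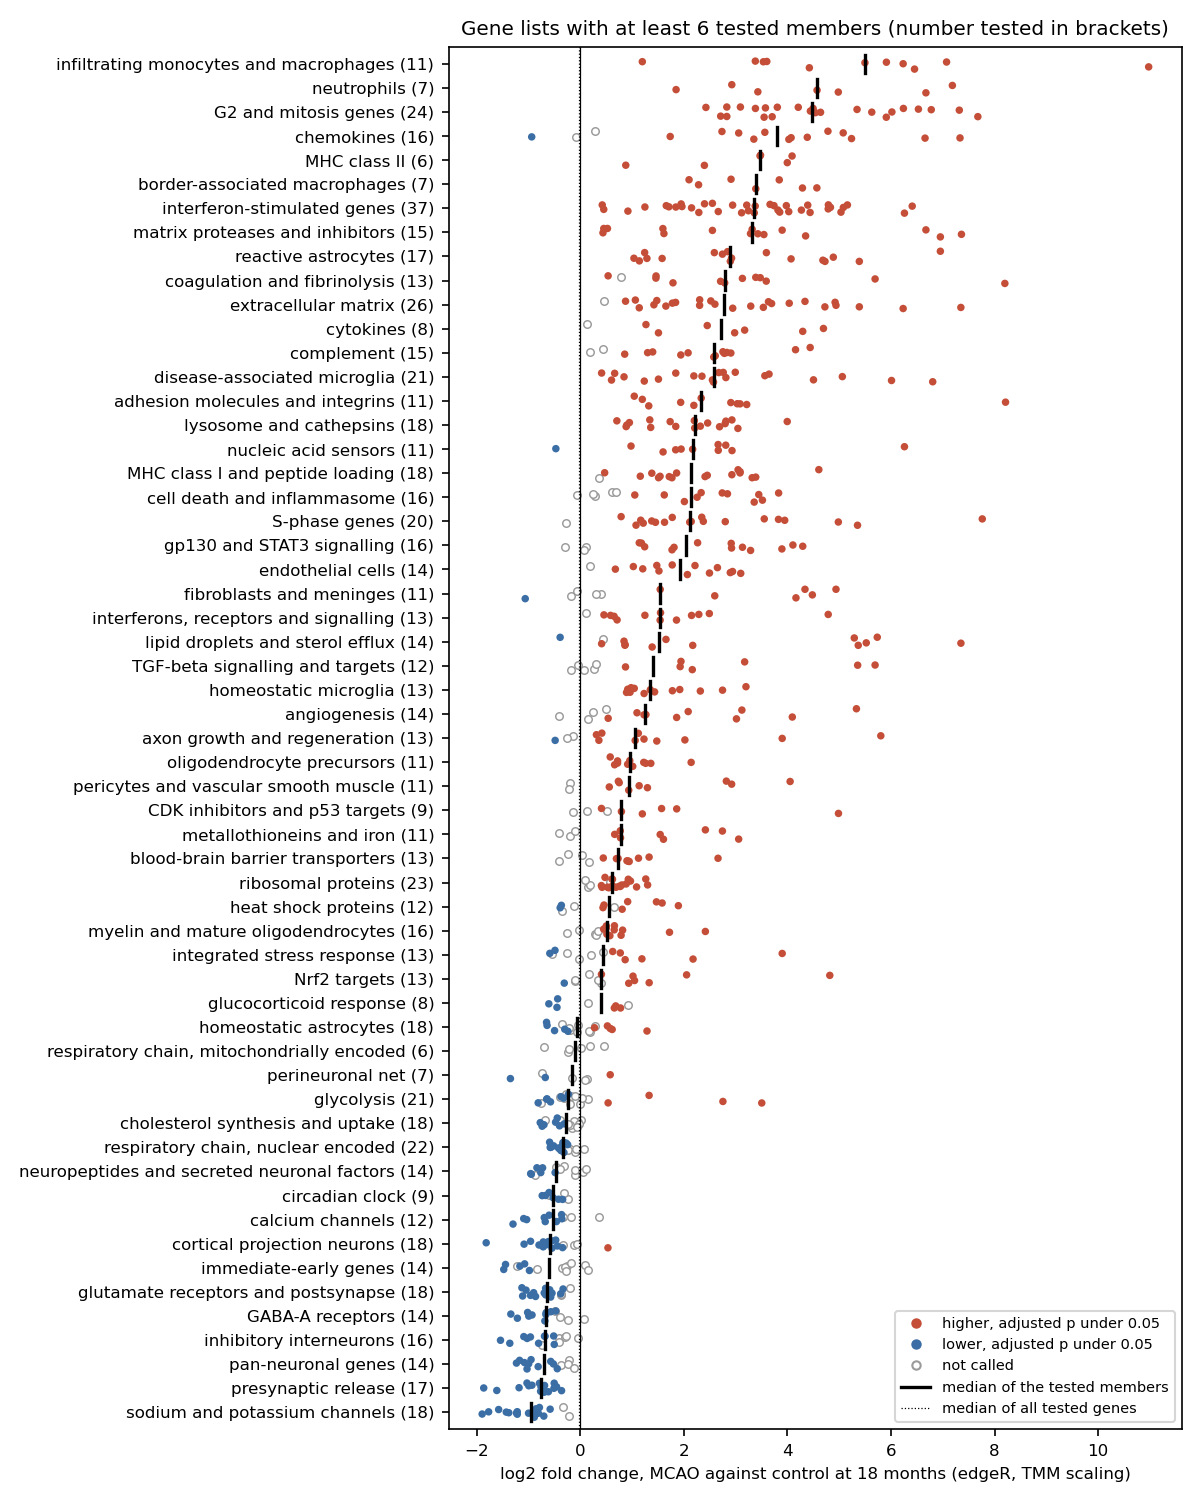
Log2 fold change after MCAO at 18 months (x axis) of every tested member of the gene lists with at least 6 tested members. Each point is a gene, filled where the adjusted p was under 0.05, and the thick bar is the list's median. Lists of blood-derived and dividing cells lie farthest to the right, with a median of 5.50 for monocytes and macrophages. Neuronal lists lie to the left with a narrower range, down to a median of -0.94 for sodium and potassium channels.

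The genes with the smallest p-values among rises are known from several cell types. Ctsl, a lysosomal cysteine protease (ENSMUSG00000021477.8, GRCm38 chromosome 13, 64359337 to 64370890), had 92.8, 112 and 122 CPM in controls (lowest, median, highest) and 438, 495 and 585 CPM after MCAO (log2 fold change ± SE 2.20 ± 0.10, adjusted p = 2.3e-14). Its lowest injured library thus stood far above the highest control, and the 6 injured animals differed little from each other. Itgam, the alpha chain of complement receptor 3 on myeloid cells (chromosome 7, 128062640 to 128118491), rose from 3.67–7.02 to 34.6–43.8 CPM (2.91 ± 0.14). Pros1, encoding the anticoagulant protein S, which also bridges dying cells to phagocyte receptors, had 25.8, 30.5 and 36.7 CPM in controls and 155, 165 and 210.4 CPM after MCAO (2.44 ± 0.12). Single values in brackets after a gene are its log2 fold change ± SE, here and below. In each of these 3 genes the groups were far apart. The Src-family kinase Lyn (2.74 ± 0.14), the leukocyte tetraspanin Cd53 (3.50 ± 0.19) and the membrane protein Emp1 (4.73 ± 0.26) rose as well. So did 4 genes of dividing cells, Ube2c, Cdk1, Birc5 and Gins2, and the astrocyte filaments Vim and Gfap, all described with their groups below.

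The 12 falls with the smallest p-values were chosen under the same conditions. They included a potassium channel, a GABA-A receptor subunit, a calcium sensor and a subunit of the sodium pump. Kcnc1 encodes Kv3.1, a potassium channel that lets neurons fire fast (ENSMUSG00000058975.6, chromosome 7, 46396497 to 46438704). It had 210.1, 224 and 243 CPM in controls and 77.5, 94.8 and 138 CPM after MCAO (-1.21 ± 0.11, adjusted p = 1.2e-09). Every injured library was below every control, with library B the highest of the injured. Gabrd, the delta subunit of extrasynaptic GABA-A receptors (chromosome 4, 155384980 to 155398112), fell from 71.5–87.6 to 27.5–40.3 CPM (-1.34 ± 0.13). Vsnl1, a neuronal calcium sensor, fell from 354–439.5 to 162–235 CPM (-1.02 ± 0.10). Atp1b1, the beta subunit of the sodium pump, had 1750.4, 1773 and 1934 CPM in controls and 1002, 1053 and 1223 CPM after MCAO (-0.74 ± 0.074). In all 4 genes the highest injured library lay below the lowest control, as the choice required. Falls were also found in the BEN domain gene Bend6 (-1.17 ± 0.11), the oxysterol-binding protein Osbpl1a (-1.001 ± 0.092), the kinase Brsk2 of neuronal polarity (-0.83 ± 0.08) and the ubiquitin ligase Hecw1 (-0.996 ± 0.10). Rgs6, a regulator of G protein signalling (-1.03 ± 0.10), the substrate adaptor Fbxw7 (-0.90 ± 0.089), the neuronal septin Sept3 (-0.75 ± 0.075) and Aifm3 (-1.08 ± 0.11) were the others of the 12.

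**Figure D2:**
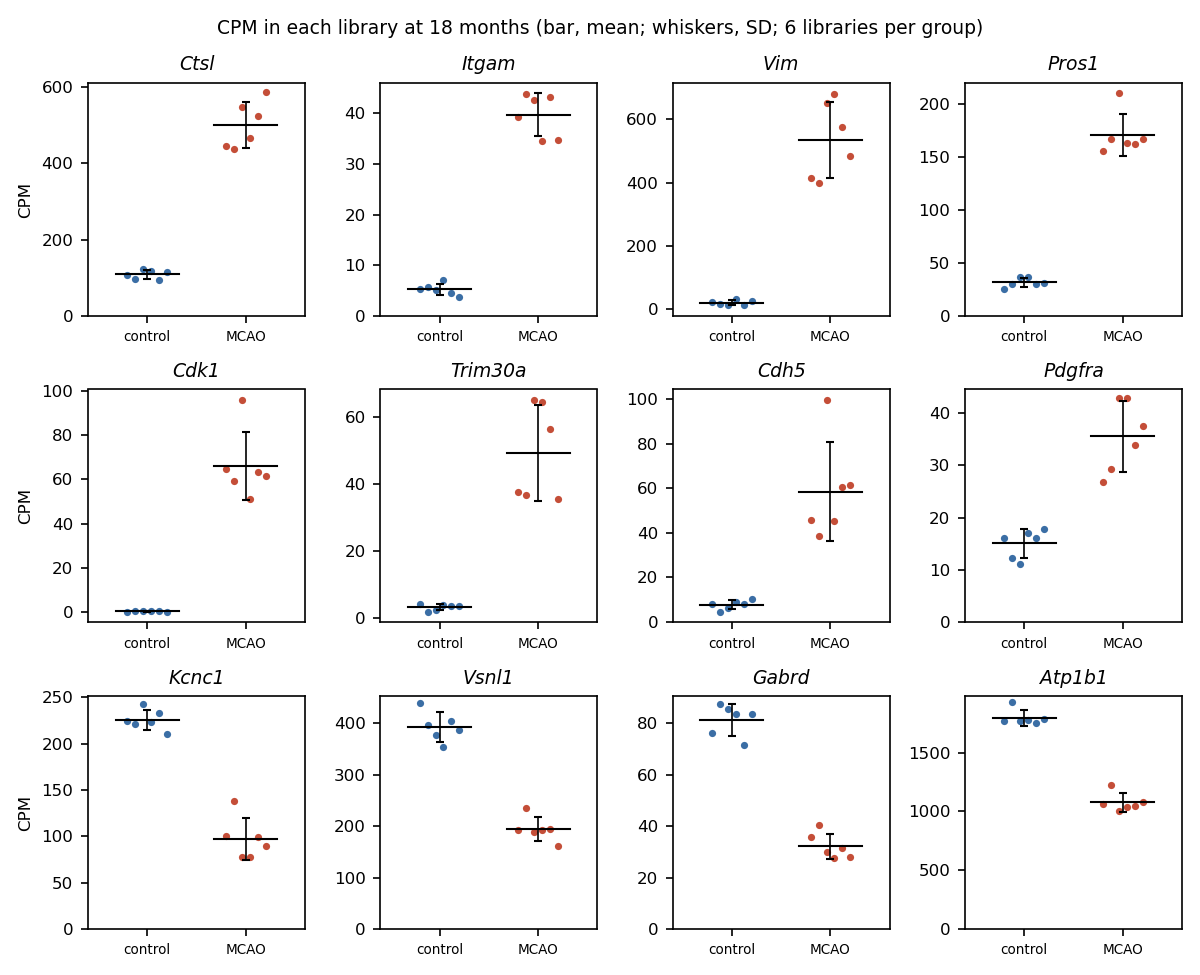
CPM (y axis, from 0) of 12 genes in each of the 12 libraries at 18 months, controls in blue and MCAO in red, with group mean and SD. The upper 8 genes were higher in every injured library than in any control, and the lower 4 were lower in every injured library. For genes chosen by p-value this separation was a condition of the choice.

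Genes of signals that attract leukocytes, of their receptors and of blood-derived cells rose. The chemokine Ccl2, which draws monocytes, had 0 to 0.952 CPM in controls and 23.95, 36.3 and 56.4 CPM after MCAO (7.33 ± 0.70), and its receptor Ccr2 went from 0–0.877 to 14.2–30.6 CPM (5.50 ± 0.64). Both were near 0 in every control and present in every injured library. Of 16 tested chemokines 13 rose and 1 fell (median 3.80), among them Ccl7, at 376 against 2 counts 140-fold higher (95% counting interval 38.5 to 1160), Ccl9 (4.03 ± 0.37) and Cxcl10, an interferon-induced ligand of lymphocytes (5.24 ± 0.47). The exception was Cx3cl1, the neuronal ligand that microglia sense through Cx3cr1, which fell from 897–1184 to 422–709 CPM (-0.94 ± 0.17). Cxcl13, which attracts B cells, was left untested by the filter with 2 counts in controls and 423 after MCAO. Counts of untested genes, here and below, are sums over the libraries of a group and do not show the spread between animals. Among 8 tested cytokines and their receptors, 7 rose (median 2.72), including the interleukin-1 antagonist Il1rn (4.70 ± 0.65), the receptor Il1r1 (2.45 ± 0.27) and Osm (4.30 ± 0.64). Tnf, Il6 and Il10 stayed too low to test, with 57, 28 and 5 counts after MCAO.

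Adhesion molecules of vessel and leukocyte followed the same direction, with 11 of 11 tested called up (median 2.34). Selp, the P-selectin on which leukocytes roll, had no count in controls and 4.49 to 10.6 CPM after MCAO, at least 62.8-fold higher on the pooled counts of each group against a floor of 3 counts. The leukocyte integrin chain Itgb2 (3.22 ± 0.18) and the endothelial ligands Icam1 (3.03 ± 0.39) and Vcam1 (1.32 ± 0.16) rose. Of 14 listed genes of infiltrating monocytes and macrophages, 11 were tested and 11 rose (median 5.50, and 10 without C and F). Arg1, arginase-1 of infiltrating macrophages, was at least 432-fold higher. The scavenger receptor Msr1 rose by 7.07 ± 0.55 and thrombospondin Thbs1 by 6.24 ± 0.39 on the log2 scale. Ly6c2 of inflammatory monocytes, untested, had 134 counts after MCAO and 0 in controls. Macrophages of the brain's borders were represented by 7 tested genes, all called up (median 3.39), with Mrc1 at 2.29 ± 0.33 and Stab1 at 3.84 ± 0.34. Neutrophil genes were called up in 7 of 7 tested of 12 listed (median 4.57). S100a8 and S100a9, the calprotectin subunits, rose by 4.57 ± 0.55 and 4.98 ± 0.60, and the receptor Cxcr2, absent from controls, was at least 30.5-fold higher. The neutrophil marker Ly6g had 6 counts in all.

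Lymphocyte genes were scarce. Cd3e, the invariant chain of the T cell receptor complex, had 3 counts over the 6 injured libraries and Cd8a 15, and of 12 T cell genes only Trbc2 was tested. It fell from 18.6–28.5 to 3.91–17.97 CPM (-1.18 ± 0.31). As the other T cell genes were too low to test, this fall alone gives no measure of T cells. None of 8 genes of natural killer cells and none of 5 of mast cells passed the filter, and the natural killer receptor Ncr1 had 2 counts. The B cell and plasma cell genes Ighm and Jchain reached 339 and 56.8 CPM in library C. In the other 5 injured libraries they ran from 7.50 to 39.0 and from 0.706 to 4.39 CPM. Both were called higher (log2 fold change ± SE 2.09 ± 0.62 and 3.000 ± 0.87). Without library C their log2 changes were 0.45 and 0.54, and neither passed (adjusted p = 0.20 and 0.37).

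Microglial genes rose whether or not they belong to the resting state. In the homeostatic list 13 of 13 tested members rose (median 1.35), with the purinergic receptor P2ry12 at 0.98 ± 0.20, Tmem119 at 1.44 ± 0.26, the fractalkine receptor Cx3cr1 at 1.35 ± 0.24 and the growth factor receptor Csf1r at 1.92 ± 0.22. Genes of disease-associated microglia rose in 21 of 21 cases (median 2.57). Spp1, encoding osteopontin, had 3.71, 6.54 and 21.1 CPM in controls and 648, 938 and 1311 CPM after MCAO (6.81 ± 0.38). Trem2, a lipid receptor of phagocytes (2.35 ± 0.29), its adaptor Tyrobp (2.68 ± 0.22) and galectin-3, Lgals3 (6.01 ± 0.41), rose too. Apoe rose least (0.41 ± 0.15, adjusted p = 0.029), a call lost in 4 of 12 fits that leave out 1 library, those without control E or MCAO B, E or F, where its log2 change was 0.37 to 0.39. With spike-in totals its log2 change was 0.16 (adjusted p = 0.53). Monocyte-derived cells also express many of these genes.

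Genes of phagocytosis and digestion moved with them. Lysosomal genes were called up in 18 of 18 tested cases (median 2.21), among them the protease Ctsd, with 394, 552 and 774 CPM in controls and 3010.2, 4076 and 4295 CPM after MCAO (2.81 ± 0.30), and the enzyme Gusb (2.46 ± 0.14). The lipid droplet coat Plin2 had 3.43, 5.84 and 7.09 CPM in controls and 159.7, 192 and 309 CPM after MCAO (5.29 ± 0.45), so that no injured library came near a control. In its list of lipid storage and sterol efflux, 12 of 14 tested genes rose and 1 fell (median 1.52). The cholesterol exporter Abca1 (2.17 ± 0.18) and the fatty acid carrier Fabp4 (5.37 ± 0.43) rose, while Nceh1, which hydrolyses cholesterol esters, fell (-0.39 ± 0.085). Synthesis of cholesterol showed no rise among 18 tested genes. Of these 7 fell (median -0.28), among them Fdft1 (-0.70 ± 0.17), and 4 with library totals. Complement genes were called up in 13 of 15 tested cases (median 2.58), with the C1q chains C1qa, C1qb and C1qc at 2.76 ± 0.34, 2.83 ± 0.29 and 2.78 ± 0.20 and the receptor C3ar1 at 4.16 ± 0.28.

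Interferons act on cells through paired receptors whose kinases phosphorylate STAT proteins, and with IRF9 these bind a DNA element, the interferon-stimulated response element, before many antiviral genes. The ligands Ifnb1 and Ifng had no count in any of the 12 libraries. The receptor chains rose modestly, with Ifnar1 at 0.71 ± 0.15, Ifnar2 at 1.55 ± 0.16 and Ifngr1 at 1.54 ± 0.17. The call of Ifnar1 was lost under spike-in scaling (log2 change 0.40). Irf9 had 11.4, 14.4 and 15.6 CPM in controls and 55.8, 64.1 and 92.4 CPM after MCAO (2.29 ± 0.18). Of 13 tested genes of interferon receptors and signalling 12 rose (median 1.54). Sensors of foreign or misplaced nucleic acid rose in 10 of 11 tested cases (median 2.17). They included cGAS (1.84 ± 0.21), its adaptor STING, encoded by Tmem173 (2.81 ± 0.31), the RNA helicase Ddx58 (2.67 ± 0.21) and Aim2 (2.17 ± 0.22). Zbp1, with 2 counts in controls and 265 after MCAO, was 98.7-fold higher (95% counting interval 27.0 to 819). Adar, which edits double-stranded RNA, fell (-0.47 ± 0.13).

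Of 39 listed interferon-stimulated genes 37 were tested and 37 were called up (median 3.36, and 36 without C and F). Summed over the list they held 241 to 280.3 CPM in controls and 1024 to 2327 CPM after MCAO. Trim30a, a regulator of Toll-like receptor signalling (ENSMUSG00000030921.16, chromosome 7, 104409025 to 104465193), had 1.85, 3.59 and 4.33 CPM in controls and 35.5, 46.9 and 64.97 CPM after MCAO (3.85 ± 0.25, adjusted p = 1.8e-12). Bst2, tetherin, which holds budding virus at the membrane (chromosome 8, 71534255 to 71537456), rose from 1.98–5.80 to 66.8–164 CPM (4.79 ± 0.33). Rsad2, viperin, an antiviral enzyme (chromosome 12, 26442746 to 26456452), rose from 3.25–7.19 to 44.3–119 CPM (3.82 ± 0.29). In all 3 genes the lowest injured library lay above the highest control. The untested Oas3 had 95 counts after MCAO and 0 in controls.

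The promoters of these 3 genes, from RefSeq on GRCm38.p6, are printed from 250 bases before to 50 after the annotated start, 5′ to 3′ on the gene's strand, to show the element that many of the list hold. They are the 3 with the smallest p among members that hold it. They lie at chr7:104465144-104465443, chr8:71537423-71537722 and chr12:26456403-26456702, all on the minus strand. Capitals mark each match to the core of the interferon-stimulated response element, searched as GAAA, any 2 bases and GAAA on both strands.
Trim30a: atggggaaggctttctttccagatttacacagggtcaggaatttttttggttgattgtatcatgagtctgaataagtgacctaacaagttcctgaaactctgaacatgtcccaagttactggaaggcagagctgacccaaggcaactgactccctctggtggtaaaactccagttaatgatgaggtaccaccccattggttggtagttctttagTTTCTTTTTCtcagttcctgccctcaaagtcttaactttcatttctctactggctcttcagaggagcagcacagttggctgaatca
Bst2: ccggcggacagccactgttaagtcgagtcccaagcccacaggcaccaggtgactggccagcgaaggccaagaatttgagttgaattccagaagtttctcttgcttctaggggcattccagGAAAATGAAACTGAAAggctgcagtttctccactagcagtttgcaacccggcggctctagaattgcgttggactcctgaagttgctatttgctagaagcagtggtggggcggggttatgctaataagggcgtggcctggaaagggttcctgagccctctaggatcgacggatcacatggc
Rsad2: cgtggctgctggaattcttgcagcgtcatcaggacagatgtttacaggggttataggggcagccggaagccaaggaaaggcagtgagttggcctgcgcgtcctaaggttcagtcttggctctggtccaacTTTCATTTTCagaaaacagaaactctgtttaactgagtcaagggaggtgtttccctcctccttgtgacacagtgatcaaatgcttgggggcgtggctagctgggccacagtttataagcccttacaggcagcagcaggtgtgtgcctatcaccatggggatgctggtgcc
The match began at position -36 relative to the start in Trim30a and at -120 in Rsad2, and Bst2 held 2 overlapping matches at -130 and -124. Of 27 listed interferon-stimulated genes with a promoter in the table, 17 held the core (63.0%), against 1079 of 27025 genes (3.99%). A match is a description of the letters, and binding was not measured.

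Antigen presentation rose with these genes. The class I light chain B2m had 86.9, 109.7 and 141 CPM in controls and 410.4, 565 and 872 CPM after MCAO (2.41 ± 0.16), and 17 of 18 tested genes of class I presentation rose (median 2.14), with the immunoproteasome subunit Psmb8 at 3.39 ± 0.24. H2-K1 and H2-D1 rose by 3.05 ± 0.22 and 2.45 ± 0.17, values that are uncertain because class I genes share sequence and reads with several alignments stand apart from the gene counts. All 6 tested class II genes rose (median 3.48), with the invariant chain Cd74 at 3.48 ± 0.59 and H2-Aa at 3.999 ± 0.45.

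Genes of dividing cells rose, and several genes of mitosis were near 0 in intact aged cortex. Ube2c, which loads ubiquitin for exit from mitosis (ENSMUSG00000001403.13, chromosome 2, 164769898 to 164778822), had 0 to 0.526 CPM in controls and 26.7, 40.96 and 54.05 CPM after MCAO (7.68 ± 0.37, adjusted p = 2.3e-14). Cdk1, the kinase that drives entry into mitosis (chromosome 10, 69335146 to 69352938), had 0.18 to 0.635 CPM and 51.2, 62.5 and 95.7 CPM (7.32 ± 0.35). Top2a, which untangles chromosomes (chromosome 11, 98992943 to 99024189), rose from 0.245–2.54 to 76.8–153 CPM (6.53 ± 0.34). No control of the 3 genes overlapped an injured library. Of 24 G2 and mitosis genes 24 rose, without overlap between the groups in any (median 4.47, and 24 without C and F), with Mki67 at 6.78 ± 0.49, Birc5 at 4.44 ± 0.22 and Ccnb1 at 2.71 ± 0.29. S-phase genes, which summed to 111 to 141 CPM in controls and 381 to 628 CPM after MCAO, rose in 19 of 20 cases (median 2.13). They included the helicase subunits Mcm2 (2.35 ± 0.21), Mcm3 (3.55 ± 0.25) and Mcm6 (2.80 ± 0.18), the helicase cofactor Gins2 (3.83 ± 0.21) and Pclaf, a partner of the replication clamp (7.76 ± 0.50). Inhibitors of the cycle rose as well, in 6 of 9 tested cases of their list with p53 targets (median 0.80, and 3 with spike-in scaling). Cdkn1a, encoding p21, rose from 12.7–28.5 to 36.9–75.5 CPM (1.57 ± 0.20) and Cdkn2c, encoding p18, by 1.86 ± 0.27. Cdkn1b, encoding p27, stood at 0.12 ± 0.10 and did not pass (adjusted p = 0.35).

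The promoters of Ube2c, Cdk1 and Top2a, from the same RefSeq table, lie at chr2:164769679-164769978 on the plus strand and at chr10:69352863-69353162 and chr11:99024140-99024439 on the minus strand. They are printed for the pair of short elements common before genes of G2 and mitosis, CCAAT and TTTGAA, the core of the cell cycle homology region, searched on both strands and marked in capitals. These 3 had the smallest p among members that hold both.
Ube2c: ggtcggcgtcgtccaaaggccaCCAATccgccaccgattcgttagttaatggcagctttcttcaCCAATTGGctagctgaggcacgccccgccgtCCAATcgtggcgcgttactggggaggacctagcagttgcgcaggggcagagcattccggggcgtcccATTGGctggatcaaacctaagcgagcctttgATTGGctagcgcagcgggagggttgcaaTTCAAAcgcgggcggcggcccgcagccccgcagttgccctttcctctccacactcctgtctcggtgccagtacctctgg
Cdk1: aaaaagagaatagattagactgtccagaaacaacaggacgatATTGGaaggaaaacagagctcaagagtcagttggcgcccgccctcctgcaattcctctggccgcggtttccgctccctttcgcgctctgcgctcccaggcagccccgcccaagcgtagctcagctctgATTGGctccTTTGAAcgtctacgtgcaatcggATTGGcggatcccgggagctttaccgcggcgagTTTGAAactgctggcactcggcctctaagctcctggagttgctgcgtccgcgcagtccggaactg
Top2a: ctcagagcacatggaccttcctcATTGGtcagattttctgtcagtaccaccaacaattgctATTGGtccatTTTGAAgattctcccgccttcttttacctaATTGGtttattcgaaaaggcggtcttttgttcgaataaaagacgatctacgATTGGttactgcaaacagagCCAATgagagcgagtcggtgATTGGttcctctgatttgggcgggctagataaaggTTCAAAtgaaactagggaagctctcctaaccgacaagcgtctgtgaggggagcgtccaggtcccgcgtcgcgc
Among 20 listed G2 and mitosis genes with a promoter in the table, 15 held both elements (75.0%), against 2155 of 27025 genes (7.97%). CCAAT alone was found in 18 of the 20 (90.0%) and in 41.1% of all genes, and TTTGAA in 15 (75.0%) and 20.2%. In Ube2c, Cdk1 and Top2a a TTTGAA core began at -29, -15 and -23.

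Reactive astrocyte genes rose, while homeostatic ones went both ways. In the reactive list 17 of 18 genes were tested and 17 rose (median 2.90). Vim, an intermediate filament, rose from 12.4–32.3 to 397–681 CPM (4.69 ± 0.24), and Timp1, a protease inhibitor, from 0–0.877 to 12.2–52.3 CPM (6.95 ± 0.49). Gfap, already at 35.5, 43.2 and 73.3 CPM in aged controls, reached 226, 282 and 335 CPM (2.59 ± 0.14). Among 18 homeostatic astrocyte genes 5 rose and 5 fell (median -0.06). Over all tested genes 23.7% rose and 21.5% fell, with a median of -0.03, so this list was near them. The balance within the homeostatic list depended on the scaling, with 7 up and 3 down with library totals (median 0.06) and 1 up and 8 down with spike-in totals. Without C and F, 5 were up and 3 down. The water channel Aqp4 rose from 79.5–117 to 160.0–279.6 CPM (1.29 ± 0.12). The glutamate transporter Slc1a2 fell from 2341–3727 to 1241–2103 CPM (-0.65 ± 0.14), while the related Slc1a3 stood at 0.19 ± 0.091 (adjusted p = 0.096). Signalling through gp130 and STAT3, which drives astrocyte reactivity, rose in 13 of 16 tested genes (median 2.04). Among ligands Clcf1 rose by 3.29 ± 0.51 and Il11 by 3.89 ± 0.80, the receptor Osmr by 2.92 ± 0.31, and the targets Bcl3 and Cebpd by 4.11 ± 0.43 and 2.92 ± 0.27.

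Oligodendrocyte lineage genes were higher at both ends of maturation. All 11 tested precursor genes rose (median 0.96, and 7 with spike-in totals). The growth factor receptor Pdgfra had 11.1, 16.1 and 17.9 CPM in controls and 26.7, 35.7 and 42.8 CPM after MCAO (1.23 ± 0.16), and Gpr17, of committed precursors, rose from 5.71–12.8 to 21.998–54.5 CPM (2.14 ± 0.27). Of 16 genes of myelin and mature oligodendrocytes 11 rose (median 0.51, and 3 with spike-in totals). Trf, transferrin, rose from 213–410.1 to 967–2252 CPM (2.42 ± 0.20) and the tight junction protein Cldn11 from 57.8–109.6 to 209–352 CPM (1.72 ± 0.17). The major myelin protein genes moved less, with Mbp at 0.29 ± 0.15 (adjusted p = 0.12) and Mog at 0.31 ± 0.21 (adjusted p = 0.25).

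Vascular genes rose across cell types of the vessel wall. The junctional cadherin Cdh5 had 4.40, 8.03 and 10.03 CPM in controls and 38.3, 53.1 and 99.6 CPM after MCAO (2.94 ± 0.23), with library C the highest. Of 14 endothelial genes 13 rose (median 1.92), including Emcn (2.22 ± 0.20) and von Willebrand factor, Vwf (3.10 ± 0.31). Angiogenic genes rose in 10 of 14 cases (median 1.25). Angpt2, which destabilises vessels, rose by 3.02 ± 0.31, placental growth factor, Pgf, by 1.86 ± 0.34 and the hypoxia factor Hif1a by 1.23 ± 0.093, whereas Vegfa had 50.8 to 74.3 CPM in controls and 38.9 to 58.5 CPM after MCAO (-0.41 ± 0.20, adjusted p = 0.087). Transporters of the blood-brain barrier rose in 9 of 13 cases (median 0.73, and 4 with 1 down under spike-in totals). The glutamine carrier Slc38a5 (2.66 ± 0.26), the glucose carrier Slc2a1 (1.33 ± 0.21) and the efflux pump Abcc4 (1.13 ± 0.17) rose, while the lipid transporter Mfsd2a stood at 0.17 ± 0.17 (adjusted p = 0.45). Pericyte and smooth muscle genes rose in 9 of 11 tested cases (median 0.94, and 5 with spike-in totals), with Pdgfrb at 1.14 ± 0.22, Anpep at 2.92 ± 0.52 and Tagln at 4.05 ± 0.47. Genes of clotting and its resolution rose in 12 of 13 tested cases (median 2.79). Procr, the endothelial receptor of protein C, rose by 3.59 ± 0.35 and F13a1, which cross-links fibrin, by 3.39 ± 0.38. Tissue factor, F3, stood at 0.79 ± 0.46 (adjusted p = 0.18).

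Matrix genes rose with large differences between animals. Collagen I, Col1a1, had 1.62, 4.63 and 6.35 CPM in controls and 37.5, 96.2 and 292 CPM after MCAO (4.94 ± 0.62), lowest in library D and highest in library C. Col3a1 ran from 23.7 to 176 CPM after MCAO over the same libraries, from at most 0.877 CPM in controls (7.35 ± 0.71). Of 26 matrix genes 25 rose (median 2.77, and 24 without C and F), including the basement membrane collagen Col4a1 (2.52 ± 0.19) and tenascin, Tnc (5.39 ± 0.38). Matrix proteases and their inhibitors were called up in 15 of 15 tested cases (median 3.32), with Mmp2 at 3.32 ± 0.55, Mmp14 at 3.29 ± 0.25 and Adamts1 at 2.55 ± 0.17. Fibroblast and meningeal genes rose in 6 of 11 tested cases and fell in 1 (median 1.55). Dcn and Lum, small proteoglycans, rose by 4.17 ± 0.41 and 4.48 ± 0.47, and the prostaglandin D synthase Ptgds fell from 223–464 to 72.2–244 CPM (-1.06 ± 0.21). Transforming growth factor beta signalling rose in 7 of 12 tested genes (median 1.40), in the ligand Tgfb1 (3.18 ± 0.46) and the target Tgfbi (5.36 ± 0.54), while the ligands Tgfb2 and Tgfb3 stood at 0.27 ± 0.13 and 0.07 ± 0.16 and did not pass (adjusted p = 0.097 and 0.8). Of 7 tested perineuronal net genes 2 fell, the link protein Hapln4 (-1.35 ± 0.25) and brevican, Bcan (-0.67 ± 0.13), and 1 rose, the receptor phosphatase Ptprz1 (0.58 ± 0.13, and not called with spike-in totals). Acan stood at -0.73 ± 0.34 (adjusted p = 0.081).

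Neuronal genes fell across classes, each with a list median above -1 on the log2 scale. Sodium and potassium channel genes had the lowest median of the neuronal lists (-0.94), with 16 of 18 down. The sodium channel Scn1a, prominent in fast-spiking interneurons, had 178, 242 and 258 CPM in controls and 64.3, 83.6 and 115 CPM after MCAO (-1.43 ± 0.15). The modulatory subunit Kcns1 fell by 1.89 and Kcnab3 by 1.77 on the log2 scale. Scn2a and Scn3a stood at -0.33 ± 0.15 and -0.21 ± 0.16 and did not pass (adjusted p = 0.07 and 0.3). All 17 presynaptic genes fell (median -0.76), most in Syt2 (67.8–94.9 to 13.4–45.03 CPM, -1.86 ± 0.22) and Vamp1 (-1.61 ± 0.19), which serve fast release, and less in the widely used Syn1 (-0.76 ± 0.16) and Syp (-0.69 ± 0.11). Calcium channel genes fell in 9 of 12 cases (median -0.53), with Cacnb4 at -1.30 ± 0.16 and Cacna2d3 at -1.03 ± 0.15.

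Receptors on the receiving side fell too. Glutamate receptor and postsynaptic genes fell in 15 of 18 cases (median -0.64), with the NMDA receptor subunits Grin1 at -1.12 ± 0.15, Grin2a at -1.04 ± 0.11 and Grin2b at -0.62 ± 0.095. GABA-A receptor genes fell in 10 of 14 cases (median -0.66), Gabrd among them, while Gabra2 stood at 0.08 ± 0.29 (adjusted p = 0.85). The sizes of these falls were not tested against each other. Interneuron markers fell in 10 of 16 cases (median -0.68). Lamp5, of neurogliaform cells, fell from 161–263 to 45.3–129 CPM (-1.54 ± 0.21) and the GABA synthase Gad1 by 1.09 on the log2 scale, while its companion Gad2 stood at -0.41 ± 0.18 (adjusted p = 0.059). Of projection neuron genes 14 of 18 fell and 1 rose (median -0.58). The layer 4 factor Rorb fell by 1.08 and Mef2c by 0.71, and Crym rose from 23.2–46.7 to 37.9–57.8 CPM (0.54 ± 0.15, with 0.25 and no call under spike-in totals). Of 14 genes of all neurons 10 fell (median -0.69), including the neurofilaments Nefh (-1.23 ± 0.14) and Nefm (-1.17 ± 0.13).

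Genes that follow neuronal activity varied between control animals. Egr1 had 543, 958 and 1912 CPM in controls and 277, 497 and 679.8 CPM after MCAO (-1.16 ± 0.34, adjusted p = 0.0078), so the groups overlapped. Of 14 tested immediate-early genes 5 fell (median -0.59), and Fos stood at -0.26 ± 0.42 (adjusted p = 0.65). Of 14 neuropeptides and secreted neuronal factors 6 fell (median -0.47), with Pdyn at -0.96 ± 0.17 and Vgf at -0.94 ± 0.22 and with Bdnf at -0.46 ± 0.30 (adjusted p = 0.22). Genes of axon growth rose in 10 of 13 tested cases and fell in 1 (median 1.06). The tubulin Tubb6 rose from 0–0.541 to 10.9–22.3 CPM (5.80 ± 0.37), the stress factor Atf3 from 0–0.734 to 4.92–9.03 CPM (3.90 ± 0.40) and Sox4 by 1.12 ± 0.13, while stathmin, Stmn1, fell (-0.48 ± 0.13). Some of these genes are also expressed by glia and leukocytes.

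Transcripts of energy metabolism went both ways. Nuclear genes of the respiratory chain fell in 15 of 22 cases (median -0.33, and 7 with library totals), with Ndufv1 of complex I at -0.59 ± 0.11 and Cox4i1 of complex IV at -0.58 ± 0.14. Control A had the highest sum of this list, 6804 CPM against 4832 to 5728 CPM in the other controls. Mitochondrially encoded transcripts took at most 0.0300% of counts in any library, and 3 of 9 were at 0, so they are not compared. Of 21 glycolytic genes 4 rose and 7 fell (median -0.23, with 3 up and 11 down under spike-in totals and 4 and 4 under library totals). Over all tested genes 23.7% rose and 21.5% fell, so these counts do not set the glycolytic list as a whole apart. Hk2, an inducible hexokinase, rose from 5.08–12.5 to 45.4–66.4 CPM (2.76 ± 0.21) and the lactate exporter Slc16a3 from 1.26–3.91 to 19.4–35.4 CPM (3.51 ± 0.30). The neuronal enolase Eno2 (-0.81 ± 0.17), the astrocytic aldolase Aldoc (-0.64 ± 0.12) and Ldhb (-0.65 ± 0.091) fell. Ribosomal protein genes rose in 19 of 23 cases (median 0.62, and 7 with spike-in totals), with Rplp0 at 1.30 ± 0.12 and Rps24 at 1.27 ± 0.15. Their many processed pseudogenes share reads, so the values are uncertain.

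Stress genes rose selectively. Haem oxygenase, Hmox1, had 2.34, 3.23 and 5.71 CPM in controls and 49.1, 61.98 and 303 CPM after MCAO (4.82 ± 0.51), highest in library F, which also held the most haemoglobin. In its list of Nrf2 targets 7 of 13 tested genes rose and 1 fell (median 0.41, with no fall under library totals or without C and F). Prdx1 (1.05 ± 0.13) and the factor Nfe2l2 itself (2.05 ± 0.16) rose, while Nqo1 stood at 0.40 ± 0.32 (adjusted p = 0.34). Heat shock genes rose in 7 of 12 cases (median 0.56), among them the small chaperones Hspb8 (18.2–46.8 to 122–171 CPM, 1.90 ± 0.23) and Hspb1 (1.58 ± 0.35) and their partner Bag3 (1.47 ± 0.16). The list held 2 falls with TMM scaling, none with library totals or without C and F, and 3 falls beside 4 rises with spike-in totals. Of 13 genes of the integrated stress response 6 rose and 2 fell (median 0.43), with Trib3 at 2.18 ± 0.45 and the asparagine synthetase Asns at -0.59 ± 0.18. Genes of iron and metal handling rose in 8 of 11 cases (median 0.78, and 5 with 1 down under spike-in totals), with Mt2 at 1.54 ± 0.14 and ceruloplasmin, Cp, at 2.75 ± 0.25, while the neuronal Mt3 stood at -0.19 ± 0.40 (adjusted p = 0.73). Of 16 tested genes of cell death and the inflammasome 11 rose (median 2.13), with the inflammasome adaptor Pycard at 3.52 ± 0.26 and Casp4 at 3.36 ± 0.45.

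Glucocorticoid and clock genes moved in small steps. Of 8 tested glucocorticoid response genes 3 rose and 3 fell, with Fkbp5 at 0.78 ± 0.14 and Tsc22d3 at -0.45 ± 0.12. Under spike-in totals none rose, and under library totals 1 fell. Of 9 clock genes 6 fell (median -0.52, and 3 with library totals), among them Nr1d2 (-0.52 ± 0.088) and Nr1d1 (-0.60 ± 0.15). The labels do not state the hour at which tissue was taken.

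Animals of the injured group differed most in a few genes. The 10 called genes with the widest spread of log2 CPM among the 6 injured libraries included 4 haemoglobin genes, Ighm and Jchain. Hbb-bs, an adult beta globin, had 1.62, 6.58 and 38.4 CPM in controls and 23.3, 46.2 and 704 CPM after MCAO (3.97 ± 0.89), and without C and F its log2 change was 1.68. Under the same setting Hba-a1, Hba-a2 and Hbb-bt had log2 changes of 1.35, 1.54 and 1.39 and did not pass, which left 1 of 4 tested erythrocyte genes called. The globin copies share reads. The water channel Aqp1 ran from 0.955 to 29.7 CPM after MCAO (5.36 ± 1.11), the prostaglandin D receptor Ptgdr from 0.573 to 11.2 CPM (2.37 ± 0.42), the interferon-induced Ifi202b from 0 to 15.7 CPM (4.73 ± 1.16) and the endothelial factor Sox18 from 1.92 to 29.1 CPM (2.75 ± 0.81, and 2.03 with no call without C and F). Across lists, library C had the highest score (mean log2 CPM of the tested members) of the injured group for matrix (6.05, against 4.45 in D) and for class I presentation (6.26). Library D had the lowest score for fibroblasts (3.68), border macrophages (2.58) and neutrophils (2.63), while its interferon score (5.13) was second to that of C (5.28). The part of the haemoglobin level in these differences was not tested.

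**Figure D3:**
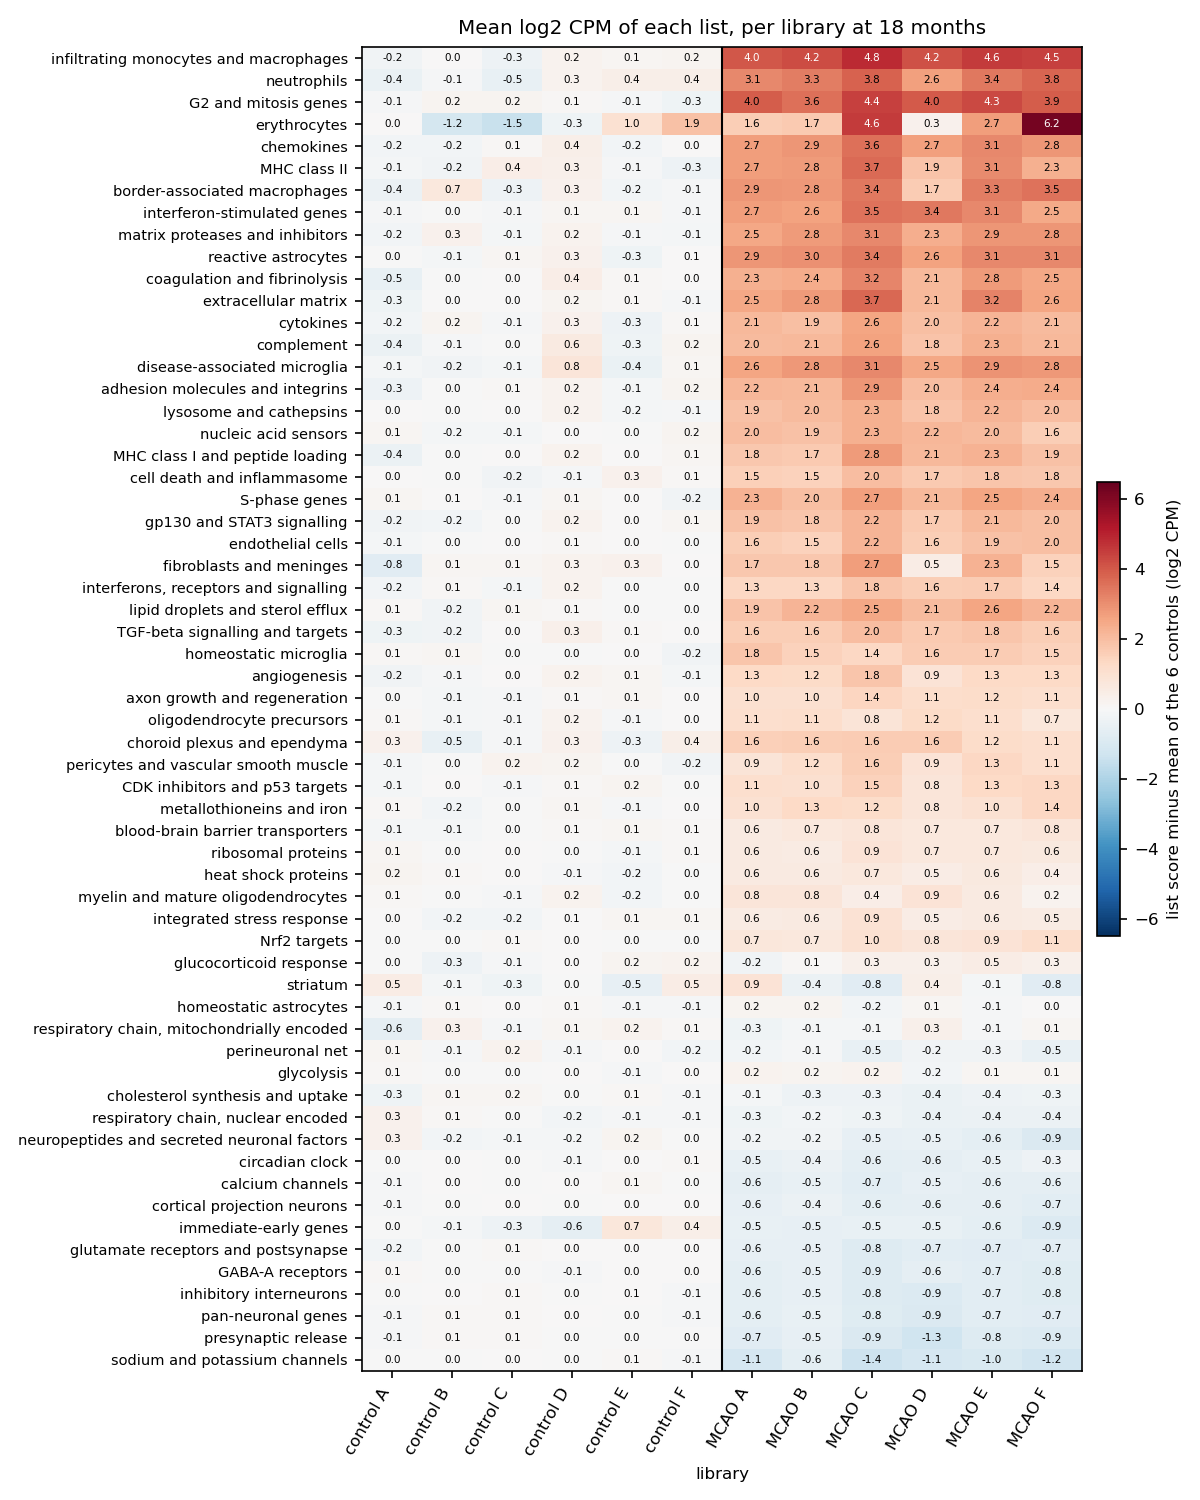
List scores (mean log2 CPM of the tested members) in each of the 12 libraries, shown as the difference from the mean of the 6 controls, with lists ordered by their median change. Red is above and blue below the control mean. The erythrocyte row stands out by its spread among injured libraries, from a score of 1.87 in D to 7.84 in F, while the neuronal rows at the foot are below 0 in all 6.

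The same surgery in mice of 3 months, with its own 6 controls, gave 2930 genes up (20.1%) and 2521 down (17.3%). Of these calls 53.8% were up, against 75.6% with library totals and 18.6% with spike-in totals, where the median of all genes was -0.49. Values at the 2 ages stand side by side for the lists. Interferon-stimulated genes had medians of 3.36 at 18 and 1.74 at 3 months, with 37 and 29 of 37 called up. Class I presentation had 2.14 and 1.34, and sodium and potassium channels -0.94 and -0.43, with 16 and 9 of 18 down. Axon growth genes had 1.06 and 0.30, G2 and mitosis genes 4.47 and 3.60, reactive astrocytes 2.90 and 3.30 and disease-associated microglia 2.57 and 3.27. The medians of the members' own differences (18 minus 3 months) were 1.32 for interferon-stimulated genes, 1.02 for class I presentation, -0.55 for sodium and potassium channels, 0.39 for axon growth, 0.40 for G2 and mitosis, -0.02 for reactive astrocytes and -0.61 for disease-associated microglia. Except in class I presentation and in sodium and potassium channels, this was nearer to 0 than the gap between the list medians. A call at 1 age alone does not show a difference between ages, which the interaction term tested.

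**Figure D4:**
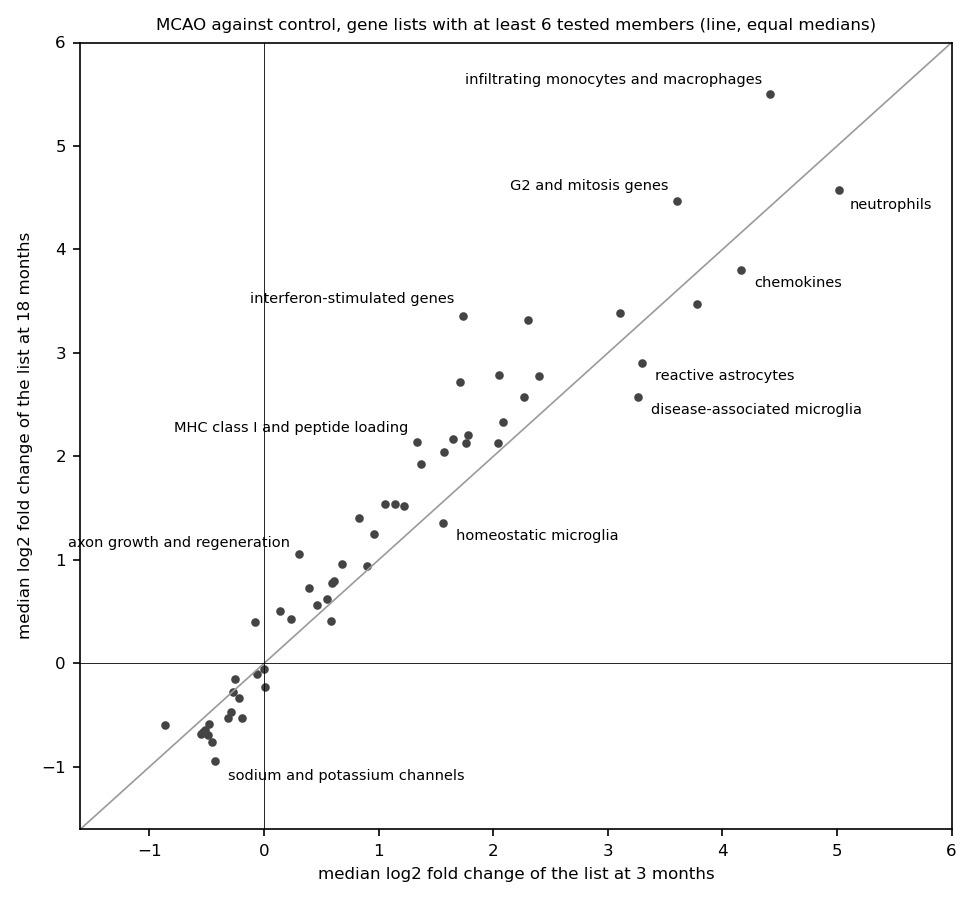
Median log2 fold change of each gene list after MCAO at 18 months (y axis) against that at 3 months (x axis), for lists with at least 6 tested members, with the line of equal medians. Interferon-stimulated genes lie above the line, with 3.36 against 1.74, and disease-associated microglia below it, with 2.57 against 3.27.

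The MCAO effect differed between the ages in 12 genes (0.0822%), 6 larger or more positive at 18 months (0.0411% of those tested) and 6 smaller or more negative (0.0411%). Without adjustment 1561 genes had a p under 0.05. The number depended on the method, with 55 and 62 genes by DESeq2's Wald test, 4 and 7 with library totals and 2 and 1 with spike-in totals, which moved the median difference of all genes from 0.01 to 0.18. Leaving out 1 library gave 1 to 20 and 2 to 26, the fewest without control B, control C or MCAO E and the most without MCAO B. Gfap rose less in aged cortex, by 2.59 against 4.48 on the log2 scale (difference -1.89 ± 0.20, adjusted p = 1e-05). Its levels after MCAO were close, with medians of 282 CPM at 18 and 255 CPM at 3 months, whereas control medians were 43.2 and 11.1 CPM. The chemokine Ccl3 had the same pattern, with medians of 6.76 and 4.90 CPM after MCAO and of 0.927 and 0 CPM in controls (difference -3.89 ± 0.69, adjusted p = 0.027). All but 1 of the young controls were at 0, so the size of this fitted difference depends on the prior count. With spike-in totals the Ccl3 difference was -3.77 and was not called (adjusted p = 0.067).

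In 3 genes of the interferon-stimulated list, and in Helz2, which is not on that list, the rise was larger in aged cortex. Rsad2 had 2.72, 4.11 and 9.27 CPM in controls of 3 months and 9.44, 11.2 and 21.1 CPM after MCAO at that age, against 44.3, 63.2 and 119 CPM at 18 months (difference 2.55 ± 0.41, adjusted p = 0.011). All 6 aged injured libraries were above all 6 young ones. Isg15, a ubiquitin-like protein, had 12.5, 23.1 and 55.8 CPM after MCAO at 3 and 90.8, 191 and 456 CPM at 18 months (difference 3.30 ± 0.57, adjusted p = 0.027). Ifi44 had medians of 3.91 and 20.6 CPM (difference 3.01 ± 0.60, adjusted p = 0.045) and the helicase Helz2 of 3.55 and 15.5 CPM (difference 2.44 ± 0.49, adjusted p = 0.047). Rsad2 kept its call in all 12 fits that leave out 1 library of 18 months, while Isg15, Ifi44 and Helz2 lost theirs in 3, 9 and 8, with adjusted p of at most 0.058, 0.086 and 0.093. For Isg15 these were the fits without control B, control C or MCAO E (log2 differences 3.28 to 3.29). With spike-in totals Rsad2 and Ifi44 kept their calls. Isg15 and Helz2 lost theirs (log2 differences 3.32 and 2.54, adjusted p = 0.15 and 0.051).

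Kcnc1 fell more in aged cortex. It had 189 to 227 CPM in young controls and 128 to 175 CPM in young injured cortex (difference -0.82 ± 0.16, adjusted p = 0.036). The kelch protein Klhl40 had 11.9 to 20.5 CPM in aged controls and 5.35 to 11.7 CPM after MCAO, and 9.61 to 15.7 and 12.3 to 23.8 CPM at 3 months, with log2 changes of -0.94 and 0.48 (difference -1.42 ± 0.29, adjusted p = 0.047). Podxl, a sialomucin of vessels and neurons, rose from 54.9–68.7 to 141–244 CPM at 18 months and from 55.2–73.2 to 70.7–143 CPM at 3 months (difference 0.996 ± 0.19, adjusted p = 0.038). These calls were lost in 5 (Kcnc1), 8 (Klhl40) and 6 (Podxl) of the 12 fits, with adjusted p of at most 0.091. With spike-in totals none of them was called. The log2 differences were then -0.67 for Kcnc1, -1.25 for Klhl40 and 1.14 for Podxl (adjusted p = 0.92, 0.43 and 0.40). The predicted genes Gm8292 and Gm43398, named after their values were seen, were also among the 12 (log2 differences 1.20 ± 0.23 and -1.47 ± 0.30, adjusted p = 0.038 and 0.045). Each lost its call in 6 of the 12 fits, with adjusted p of at most 0.079 and 0.086, and with spike-in totals (adjusted p = 0.25 and 0.60).

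**Figure D5:**
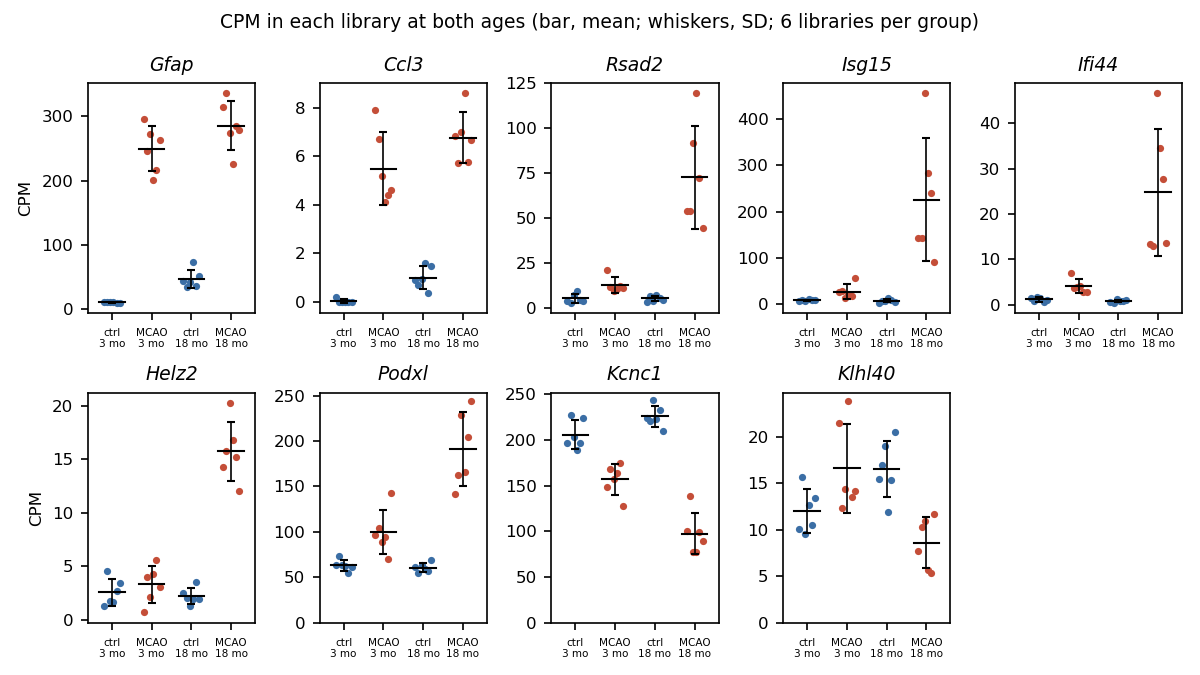
CPM (y axis, from 0) in each library of the 4 groups for 9 named genes in which the MCAO effect differed between ages, with group mean and SD. For Gfap and Ccl3 the aged controls lie above the young ones and the injured groups overlap, whereas for Rsad2 and Isg15 the controls overlap and the aged injured libraries lie higher.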

How the data were processed

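Cortex of C57Black/6 mice was profiled as 3′ end RNA sequencing, and the 12 libraries of 18 months are described here. The authors deposited counts of reads per gene, 1 file per library, with 46983 gene identifiers, 92 spike-ins and 5 summary lines. Per the submitters' processing notes, Trimmomatic, HTSeq and DESeq2 were used with GRCm38, and the aligner is not given in the sources used here. Spike-ins and summary lines were left out of library sizes and tests.

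From the deposited counts, genes were filtered (filterByExpr of edgeR 4.0.16 on R 4.3.3, minimum count 10), scaled by TMM and fitted with edgeR's robust quasi-likelihood model as 4 group means over all 24 libraries, which share 1 estimate of the spread. P-values were adjusted by Benjamini and Hochberg over 14599 genes. Symbols came from the reference table for 46488 identifiers. Folds of genes with at most 3 control counts are ratios of summed counts, with a floor of 3 counts per group where controls were at 0, and intervals cover counting error only.

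Each letter from A to F is 1 animal of its group, and no label ties a letter to the same litter or day in another group. Within groups, 30 pairs of libraries differed by more than counting noise (chi-square per degree of freedom 3.38 to 23.3), so no library was a second deposit of another. Pairs of control A with another control had 14.4 to 23.3, and pairs among the other controls 3.38 to 7.67. Pairs of MCAO library D with another injured library had 14.3 to 18.8, and pairs among the other injured libraries 5.23 to 12.3. Genes were named by a rule: at 18 months, the 12 with the smallest p and the 12 with the largest change in each direction without overlap of the groups, of which some are left out here, and a few genes are not reported here. To these come, of each list, its first 3 members, the 3 called members with the smallest p in each direction and members called against the rest. The 12 with the smallest p for the difference between ages and the 10 most variable complete it. Genes given by their summed counts alone were chosen after their values were seen. The comparison, the 67 lists (921 genes) and the rule were chosen with earlier results of these data known.

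Alternatives were other scalings, filters, DESeq2 1.42.0, a replicate block, the 12 libraries of 18 months alone and each library left out.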

Additional observations from a re-analysis of the deposited data

Results flagged for a closer look

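Single libraries lay far from the other 5 of their group in 50 of 458 sets of 6 values over the named genes and library measures, judged by the gap to the nearest library as a share of the whole range. Chance flags about 1 in 20 groups that were not chosen by their spread. The named genes, however, include those chosen as most variable among the injured libraries. Of these, Hba-a1, Hba-a2, Hbb-bs, Hbb-bt, Ighm, Jchain, Aqp1, Ptgdr and Sox18 were flagged in that group, and Ifi202b was not. The share flagged can therefore not be compared with the chance rate. Genes of 1 library are not independent of each other. Library C of the injured group stood apart in Aqp1 at 29.7 CPM (nearest library 11.2), Cdh5 at 99.6 CPM (nearest library 61.3), Cdk1 at 95.7 CPM (nearest library 64.6), Icam1 at 15.01 CPM (nearest library 8.99), Ighm at 339 CPM (nearest library 39.00), Jchain at 56.8 CPM (nearest library 4.39), Osm at 6.41 CPM (nearest library 3.94), Pros1 at 210.4 CPM (nearest library 167), Psmb8 at 80.9 CPM (nearest library 47.3), Sox18 at 29.1 CPM (nearest library 10.8), Tagln at 19.8 CPM (nearest library 8.79) and Trem2 at 77.4 CPM (nearest library 57.3). Library B of the injured group stood apart in Atp1b1 at 1223 CPM (nearest library 1081), Bend6 at 192 CPM (nearest library 157), Cacnb4 at 755 CPM (nearest library 474), Kcnab3 at 101 CPM (nearest library 37.6), Nefh at 54.7 CPM (nearest library 37.7), Nefm at 182 CPM (nearest library 135), Nr1d2 at 242 CPM (nearest library 201), Sept3 at 207 CPM (nearest library 181) and Vamp1 at 107 CPM (nearest library 53.1). Library F of the injured group stood apart in Hba-a1 at 137 CPM (nearest library 41.5), Hba-a2 at 84.2 CPM (nearest library 26.1), Hbb-bs at 704 CPM (nearest library 208), Hbb-bt at 335 CPM (nearest library 113) and Hmox1 at 303 CPM (nearest library 69.7). Library D of the injured group stood apart in Cox4i1 at 139.9 CPM (nearest library 281), Gabra2 at 104 CPM (nearest library 62.5), Ptgdr at 0.573 CPM (nearest library 7.66) and Syn1 at 40.5 CPM (nearest library 103). Library A of the injured group stood apart in Cx3cr1 at 557 CPM (nearest library 432) and Tsc22d3 at 78.7 CPM (nearest library 103).

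Library A of the control group stood apart in Cacnb4 at 1835 CPM (nearest library 1136), Pdgfrb at 24.9 CPM (nearest library 16.5), Slc1a2 at 3727 CPM (nearest library 2724), Vcam1 at 32.3 CPM (nearest library 50.1) and reads matching more than 1 gene at 0.57% of its total (nearest library 0.511%). Library B of the control group stood apart in Atp1b1 at 1934 CPM (nearest library 1783), Gm43398 at 12.3 CPM (nearest library 8.69), Il1rn at 1.16 CPM (nearest library 0.18), Prdx1 at 469 CPM (nearest library 387) and Tmem173 at 6.95 CPM (nearest library 5.14). Library C of the control group stood apart in Ccl2 at 0.952 CPM (nearest library 0.232), Mki67 at 0.635 CPM (nearest library 0.185) and Msr1 at 0 CPM (nearest library 0.37). Library D of the control group stood apart in Spp1 at 21.1 CPM (nearest library 7.39) and Tgfb1 at 2.11 CPM (nearest library 0.978). Library F of the control group stood apart in Hbb-bs at 38.4 CPM (nearest library 12.2) and Ighm at 8.07 CPM (nearest library 18.5). Library E of the control group stood apart in H2-Aa at 1.66 CPM (nearest library 1.27).

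The change after MCAO differed between 18 and 3 months, by the interaction term, in 12 genes, 11 of them given here. The log2 difference (18 minus 3 months) was 2.55 for Rsad2, 3.30 for Isg15, 3.01 for Ifi44, 2.44 for Helz2, 0.996 for Podxl and 1.20 for Gm8292. It was -1.89 for Gfap, -3.89 for Ccl3, -0.82 for Kcnc1, -1.42 for Klhl40 and -1.47 for Gm43398.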

How the results depend on the processing

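At 18 months the count of genes called higher kept within 1.5 times of 3463 under every alternative run except spike-in totals (2007), and that of genes called lower within 1.5 times of 3143 under all of them. Leaving out each of the 12 libraries gave 3225 to 3450 up and 2854 to 3100 down. At 3 months, spike-in totals gave 1411 up and 6178 down, library totals 1203 down, and no filter on low counts 1656 down. For the difference between ages, spike-in totals gave 2 up and 1 down and DESeq2's Wald test 55 and 62, and leaving out 1 library gave 1 to 20 up and 2 to 26 down. The cause was not tested.

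Same-lettered libraries share a letter, and the labels do not state whether they share anything else. Between the 2 groups of 18 months, same-letter deviations from the group means correlated by -0.04 to 0.08 across genes. A fit with the replicate block called 3446 genes up and 3225 down at 18 months, 2894 and 2660 at 3 months, and 7 and 9 for the difference between ages. It called no difference in Isg15 (log2 3.21, adjusted p = 0.055) or Klhl40 (-1.44, adjusted p = 0.055) and no change in Ighm (1.28, adjusted p = 0.057) or Jchain (1.94, adjusted p = 0.068).

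Of 233 results for single named genes, 205 kept their side of the threshold in all 21 alternatives run for them. No result that was called changed direction, and direction was not compared for genes that were not called. The labels do not state how much spike-in RNA each library received, so which scaling fits these tissues was not tested. Genes that the filter on low counts left out, most listed lymphocyte genes among them, were not tested in the main fit.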
